A study of Mus musculus with 2 samples.

Results

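Elastic fibre genes were followed through the cells of the embryonic genital tubercle, the precursor of penis and clitoris. The set holds 10 genes, chosen by symbol: Eln, Fbn1, Fbn2, Fbln1, Fbln2, Fbln5, Efemp2, Mfap2, Mfap4 and Mfap5. All 10 were found among the 31053 genes of the count matrices. Cells were the barcodes of both libraries with 2000 or more unique molecular identifiers (UMIs, each standing for 1 captured RNA molecule), 500 or more genes, and mitochondrial UMIs of 10% or less. This left 17254 male and 18711 female cells.

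The study set male against female tubercles at embryonic day 14.5 (Theiler stage 22) by droplet single-cell RNA sequencing of 3' ends. Both groups were wild-type C57BL/6 mice, and neither carried an allele or had a treatment named in the labels. Each group was 1 library of cells from 3 embryos, pooled by sex after genotyping from 2 litters, so differences between embryos cannot be told apart from these data. With 1 library per sex, no difference between the sexes has a replicate check and none was tested. Values are given for both libraries, with exact 95% intervals that cover counting error only.

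Elastic fibres let tissue stretch and recoil. Fibrillins (Fbn1, Fbn2) assemble into microfibrils, to which microfibril-associated proteins (Mfap2, Mfap4, Mfap5) bind, and monomers of elastin (Eln) are laid down on this scaffold. Fibulins (Fbln1, Fbln2, Fbln5 and Efemp2, which encodes fibulin-4) link elastin to microfibrils and to the lysyl oxidases that cross-link it. In arteries elastin is made chiefly by smooth muscle cells, and elastic fibres also run through the erectile bodies of the penis. Microfibrils also occur without elastin, and they bind latent TGF-beta.

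The male library held 130105692 UMIs and the female library 144515562, with medians of 5169.5 and 5242 UMIs per kept cell. The libraries shared 82 cell barcodes, where 47.5 would be shared by barcodes drawn at random. Levels are UMIs summed over a group of cells, per 1000000 UMIs of that sum (CPM). As 3' counts they compare 1 gene across cells, not different genes with each other. The genes lie on 9 chromosomes of the mm10 build and all are protein-coding. Eln spans positions 134702593 to 134747323 of chromosome 5 on the minus strand. Fbn1 spans 125300594 to 125507993 of chromosome 2 and Fbln5 101746565 to 101819055 of chromosome 12, both on the minus strand. On the plus strand are Fbln1 (chromosome 15, 85205949 to 85286535), Fbln2 (chromosome 6, 91212455 to 91272540), Efemp2 (chromosome 19, 5473954 to 5482517), Mfap2 (chromosome 4, 141010418 to 141015984), Mfap4 (chromosome 11, 61485431 to 61488900) and Mfap5 (chromosome 6, 122505845 to 122529290). Eln, Fbn1, Fbn2, Efemp2 and Mfap4 each overlap a gene on the opposite strand (Gm30003, Gm9913, Gm26507, Mus81 and Mapk7), and the sources used here do not say whether reads were counted by strand.

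Clusters of cells were named from marker genes, with the 10 genes and 44 other genes of the elastic fibre pathway left out of the clustering. Mesenchyme-like cells, those of all clusters that met the marker limit of no other class, made up 94.5% of the male and 96.1% of the female cells. The other classes were endothelium-like (195 male and 126 female cells), skeletal muscle-like (36 and 62), glia and neural crest-like (59 and 79), epithelium-like (205 and 137), immune-like (93 and 59) and erythroid-like (148 and 262). A smooth muscle-like cluster held 212 male cells and 0 of 18711 female cells, which allows a share of up to 0.0197%. A cluster found in 1 library cannot be told apart from a trait of that library. Its cells had the smooth muscle marker Acta2 at 1664.5 CPM, against 26.2 CPM in male and 12.5 CPM in female mesenchyme-like cells. Of the 9 smooth muscle markers 7 were above their male mesenchyme-like level, while Myh11 was at 6.43 CPM, against 7.82 CPM, and Synpo2 at 12.9 CPM, against 42.5 CPM. Of 8 pericyte and mural markers, 5 were above it (Rgs5 at 9.65 CPM, against 0.41 CPM, Ndufa4l2 at 13.8 CPM, against 4.23 CPM, and Cspg4, Kcnj8 and Notch3), Pdgfrb and Abcc9 were below it, and Higd1b had 0 UMIs in both classes. Summed mesenchyme markers in these smooth muscle-like cells were at 143% of the male mesenchyme-like level. Col9a1, a cartilage collagen, was at 76.7 CPM in them, against 3.51 CPM in male mesenchyme-like cells. Of the other cartilage markers Col2a1, Hapln1 and Col11a2 were also above that level, while Acan and Matn1 had 0 UMIs. Wt1, a mesothelium marker, was at 12.9 CPM, against 0.05 CPM. Upk3b and Lrrn4 were above their mesenchyme level too, while Msln had 0 UMIs. The part of these markers in the values below was not tested.

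Elastin was the member that stood highest in the smooth muscle-like cells relative to mesenchyme. Eln reached 91.9 CPM there (200 UMIs, interval 79.6 to 106), against 10.3 CPM (9.67 to 10.9) in male and 7.16 CPM (6.68 to 7.66) in female mesenchyme-like cells. Its smooth muscle-like level was 893% of the male mesenchyme-like one. Eln was spread over many of these cells: 88 of 212 had at least 1 Eln UMI (41.5%, interval 34.8 to 48.5%), 25 had at least 3, and the 10 highest cells held 35.5% of the class's Eln UMIs. Cells with at least 5 Acta2 UMIs had 94.9 CPM of Eln and the others 87.8 CPM.

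Of the microfibril genes, Fbn2 differed most clearly in the smooth muscle-like cells. Fbn2, the fibrillin that is most prominent in embryonic tissue, was at 533 CPM (503 to 565) there, against 178 CPM in male and 174 CPM in female mesenchyme-like cells. Fbn1, the main fibrillin of postnatal microfibrils, was at 97.4 CPM, against 49.2 and 50.9 CPM, just short of a 2-fold difference at 198%. The intervals of both fibrillins lay above the mesenchyme levels. Mfap4, which binds elastin and microfibrils, was at 455 CPM, against 263 and 246 CPM. Mfap2, the microfibril protein MAGP-1, was at 474 CPM, against 419 and 392 CPM. Mfap5 (MAGP-2) was at 3.68 CPM, against 1.71 and 1.34 CPM, but this is 8 UMIs and its interval of 1.59 to 7.24 CPM takes in both mesenchyme levels.

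The fibulins differed among themselves in these cells. Efemp2 was at 102 CPM in smooth muscle-like cells, against 67.8 and 64.8 CPM in male and female mesenchyme-like cells, and Fbln5 was at 131 CPM, against 91.3 and 79.5 CPM. Fbln1 was at 131 CPM, against 137 and 141 CPM, and Fbln2 was at 147 CPM, against 139.75 and 129 CPM. The intervals of Fbln1 and Fbln2 took in the male mesenchyme-like level. In all, 3 of the 10 genes (Eln, Fbn2 and Mfap5) were past 2-fold higher than in male mesenchyme, where 7.63% of all genes with at least 100 UMIs were, and 0 were past 2-fold lower, where 5.71% were. Of the 44 other pathway genes, 17 were past 2-fold higher and 0 lower. They included Lox, the lysyl oxidase that cross-links elastin, at 188 CPM against 62.2 CPM in male mesenchyme, and Loxl1, the related enzyme needed for elastic fibre renewal, at 67.1 CPM against 2.26 CPM.

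**Figure D1:**
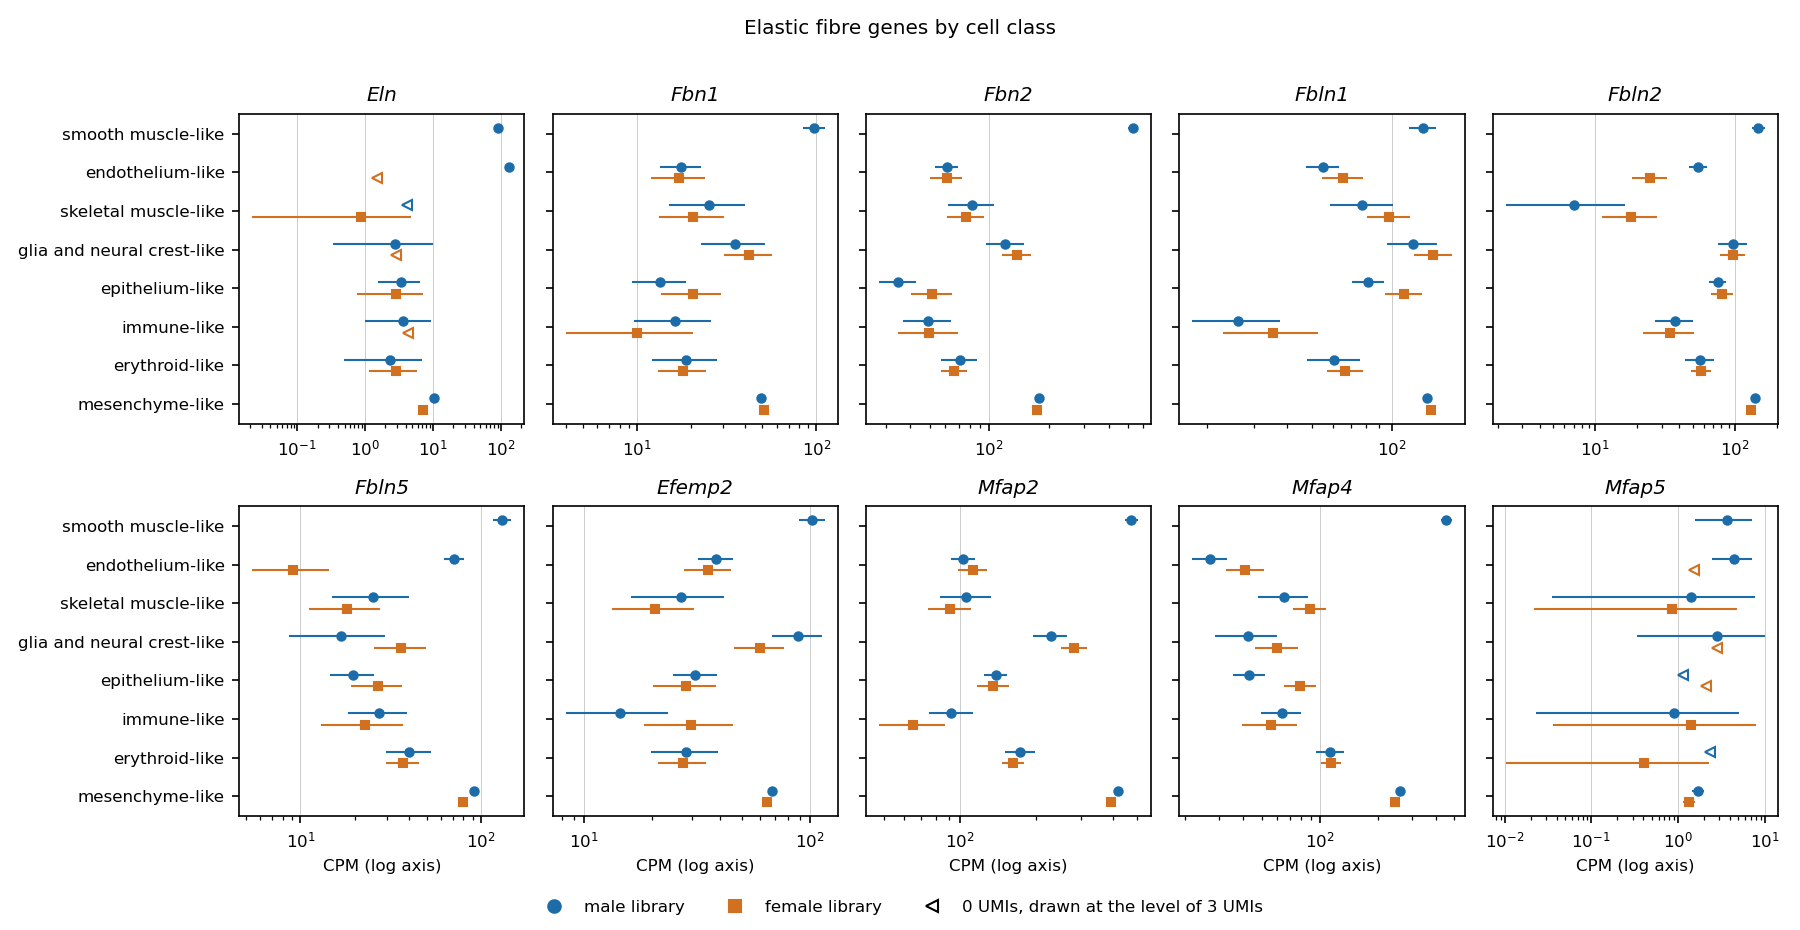
Level of each of the 10 genes by cell class (CPM, log axis) in the male library (blue circles) and the female library (orange squares), with 95% counting intervals as bars and open triangles at the level of 3 UMIs where a class had 0. Eln stood at 91.9 CPM in male smooth muscle-like and 131 CPM in male endothelium-like cells, and at 10.3 CPM in male and 7.16 CPM in female mesenchyme-like cells.

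In every class other than smooth muscle-like and endothelium-like, the 10 genes were nearly all at or below their mesenchyme level. In both libraries 9 were past 2-fold lower in erythroid-like cells (22.6% of all genes), 8 in immune-like (11.9%), 7 in epithelium-like (6.62%), 7 in skeletal muscle-like (10.2%), 6 in endothelium-like (14.1%) and 3 in glia and neural crest-like cells (4.48%). The number past 2-fold higher in both libraries was 0 in each of these classes, where 0.911%, 6.9%, 4.73%, 2.97%, 8.96% and 4.73% of all genes were. Mesenchyme markers themselves were at 8.55 to 48.8% of their mesenchyme level in these classes, so a member level in that range was not read as the class's own. Red cell precursors should lack these transcripts, yet Mfap2 was at 172 and 161 CPM in male and female erythroid-like cells, 41.2% of its mesenchyme level in both libraries.

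The glia and neural crest-like cells, named from genes of Schwann cell precursors, had the fewest members past 2-fold lower among these 6 classes (Eln, Fbln5 and Mfap4). They held Fbln1, a basement membrane fibulin, at 120.6 CPM (male) and 144 CPM (female), against 137 and 141 CPM in mesenchyme. Efemp2 was at 88.3 and 60.1 CPM in them, against 67.8 and 64.8 CPM. Mfap4 in the same cells was at 16.0% and 24.5% of its mesenchyme level. The other 2 fibulins were lower, with Fbln5 at 16.8 and 36.2 CPM, against 91.3 and 79.5 CPM in mesenchyme, and Fbln2 at 96.8 and 96.3 CPM, against 139.75 and 129 CPM. The summed mesenchyme markers of the glia-like cells were at 30.9% and 38.9%. Skeletal muscle-like cells had Fbln2, a fibulin of basement membranes and microfibrils, at 5.04% and 14.0% of mesenchyme (5 and 21 UMIs), and kept Fbln1 at 56.7% and 69.6%.

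Endothelium-like cells split by library for elastin and 2 fibulins. Eln was at 131 CPM in the male class (446 UMIs) and had 0 of 1973563 UMIs in the female class, which allows up to 1.87 CPM. Fbln5, the fibulin that brings Loxl1 to elastin, was at 71.2 CPM in the male class, against 9.12 CPM in the female class, and Fbln2 was at 54.5 and 24.8 CPM. All 3 differences rested on 3 cells. Without the cells holding at least 10 Eln UMIs, male endothelium-like cells had 1.80 CPM of Eln (6 UMIs), 6.00 CPM of Fbln5 and 20.1 CPM of Fbln2, each with an interval that overlapped that of the female class. Mfap5 had 15 male and 0 female UMIs, and 1 male UMI without those cells. Mfap4 went the other way, at 27.0 CPM (male) and 41.0 CPM (female), a log2 ratio of -0.61 (interval -1.05 to -0.16). Without those cells male Mfap4 was at 27.6 CPM, so this difference did not rest on them.

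Cells with at least 10 Eln UMIs were 4 of 17254 in the male library (0.0232%, interval 0.00632 to 0.0593%) and 0 of 18711 in the female library, which allows up to 0.0197%. The highest female cell had 3 Eln UMIs and the next male cell below the limit had 8. The 4 male cells held 292, 124, 24 and 18 Eln UMIs, and together 27.3% of all male Eln UMIs. The first alone held 17.4%. They were chosen by their Eln count, so their Eln level is a description and no test was made.

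The first 3 of these cells were endothelium-like and alike in their other elastic fibre genes. They held 149, 61 and 13 UMIs of Fbln5, 78, 35 and 6 of Fbln2, and 5, 7 and 2 of Mfap5, while Mfap4 was at 0 in all 3. Of 7 mesenchyme markers they had 3, 1 and 1, with Prrx1 at 0 and Col3a1 at 20, 17 and 1 UMIs. Their totals were 49796, 20791 and 5445 UMIs. Of 10 endothelium markers they had 10, 10 and 8. Gja5 (31, 19 and 2 UMIs), a connexin of arterial endothelium, and Bmx (17, 13 and 2), an arterial kinase, were present in each. Of the other arterial markers read, Gja4 had 16, 13 and 5 UMIs and Sox17 had 10, 7 and 0. Gja4 was in 28.2% and Sox17 in 67.2% of all male endothelium-like cells. All 3 cells thus held transcripts known from arterial endothelium, though the third lacked Sox17. Of 9 smooth muscle markers they held 2, 3 and 2, with 50, 28 and 3 UMIs of Acta2 and 23, 18 and 1 of Tagln. Actg2 and Myh11 were at 0 in all 3.

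Gja5 alone did not mark the high Eln level. Of the endothelium-like cells, 19 male and 12 female cells had Gja5, and Eln was found in 3 of the male cells, all of them with at least 10 Eln UMIs, and in 0 of the female cells. Bmx was more restricted: without the 3 cells, 4 male UMIs and 1 female UMI of it remained in the class. The neuronal gene Stmn2 was also high (89, 27 and 16 UMIs), with the other 5 neuron markers at 0. Pairwise correlations of log counts over 31053 genes were 0.87, 0.75 and 0.72 among the 3 cells. Among 163 other male endothelium-like cells with at least 5000 UMIs the median pair was at 0.74 and the highest at 0.93. Between the 3 cells and those others the highest was 0.86, with medians of 0.65 to 0.77. The first 2 cells were thus more like each other than any of the 3 was like one of the others. The barcodes of the 3 cells differed at 12, 11 and 13 of 16 bases. Their mitochondrial shares were 8.75%, 9.62% and 5.64%, and the first was among the cells with the highest doublet scores, while the other 2 were not. A mitochondrial limit of 5% removed all 4 cells, the fourth included.

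The fourth cell was of another kind. It was smooth muscle-like, with 57526 UMIs, and held 18 of Eln, 75 of Mfap4, 33 of Fbn2, 22 of Mfap2, 6 of Fbln5 and 0 of Mfap5. Per 1000000 of its UMIs Eln was 313, against 5864, 5964 and 4408 in the other 3. At a lower limit of 5 Eln UMIs, 15 male cells were counted, of which 9 were smooth muscle-like, 3 endothelium-like and 3 mesenchyme-like, and 0 female cells.

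Over the 4 cells together, the genes furthest above the other cells of their clusters, among 183 genes with at least 100 UMIs, began with Eln (458 UMIs, 90.2 times the expected count). Stmn2 (41.3 times), Fbln5 (28.4), Tm4sf1 (21.6), the calcification inhibitor Mgp (20.3) and Fbln2 (12.4) followed. Sat1 (8.80), the fibronectin gene Fn1 (8.69), the proteoglycan gene Bgn (7.71) and the imprinted RNA H19 (6.60) came next. The place of Eln follows from the choice of the cells by their Eln count.

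**Figure D2:**
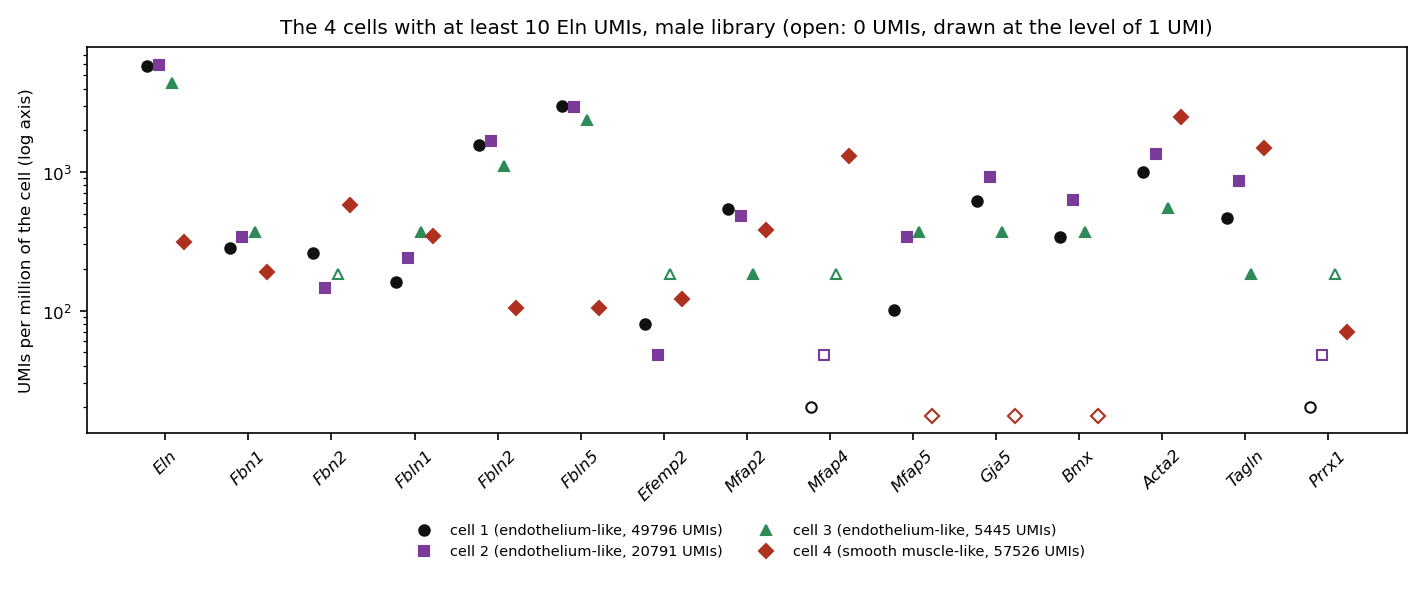
Level of the 10 genes and of 5 marker genes in each of the 4 male cells with at least 10 Eln UMIs (UMIs per 1000000 UMIs of the cell, log axis), with open symbols at the level of 1 UMI where a cell had 0. The 3 endothelium-like cells lie together at high Eln, Fbln2 and Fbln5 and have 0 Mfap4, and the smooth muscle-like cell has 75 UMIs of Mfap4 and 33 of Fbn2.

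The 4 cells set Eln apart from the other members in how its male counts were spread over cells. At least 1 Eln UMI was found in 1032 male cells (5.98%) and 809 female cells (4.32%). The top 1% of cells by Eln count, 173 male and 188 female cells, held 48.8% and 27.2% of each library's Eln UMIs. Without the 4 high cells the male share was 29.9%. For scale, the deepest 1% of cells held 5.56% and 5.37% of all UMIs. A gene seen in few cells has a high share by its low level alone, so the spread was also measured after thinning each cell to 2000 UMIs. The top 1% of cells then held 54.8% (male) and 75.8% (female) of the Eln UMIs, with the higher share in the female library, where 1.33% of thinned cells had an Eln UMI, against 2.04% in the male library. No order of the sexes was read from these shares.

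After thinning, the variance of Eln over its mean was 2.07 (male) and 1.01 (female), and 1.07 in the male library without the 4 cells. A value of 1 is that of random counting. The other 9 genes lay between 0.997 and 1.16 in both libraries. Their top 1% of cells held 5.63 to 12.2% of their UMIs, except Mfap5, whose 196 male and 161 female UMIs lay in so few cells that the top 1% held 98.0% and 100%. The cells left out were chosen by their Eln count, and at levels as low as that of Eln this ratio stays near 1 even where classes differ, so it does not show that Eln was even over cells.

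**Figure D3:**
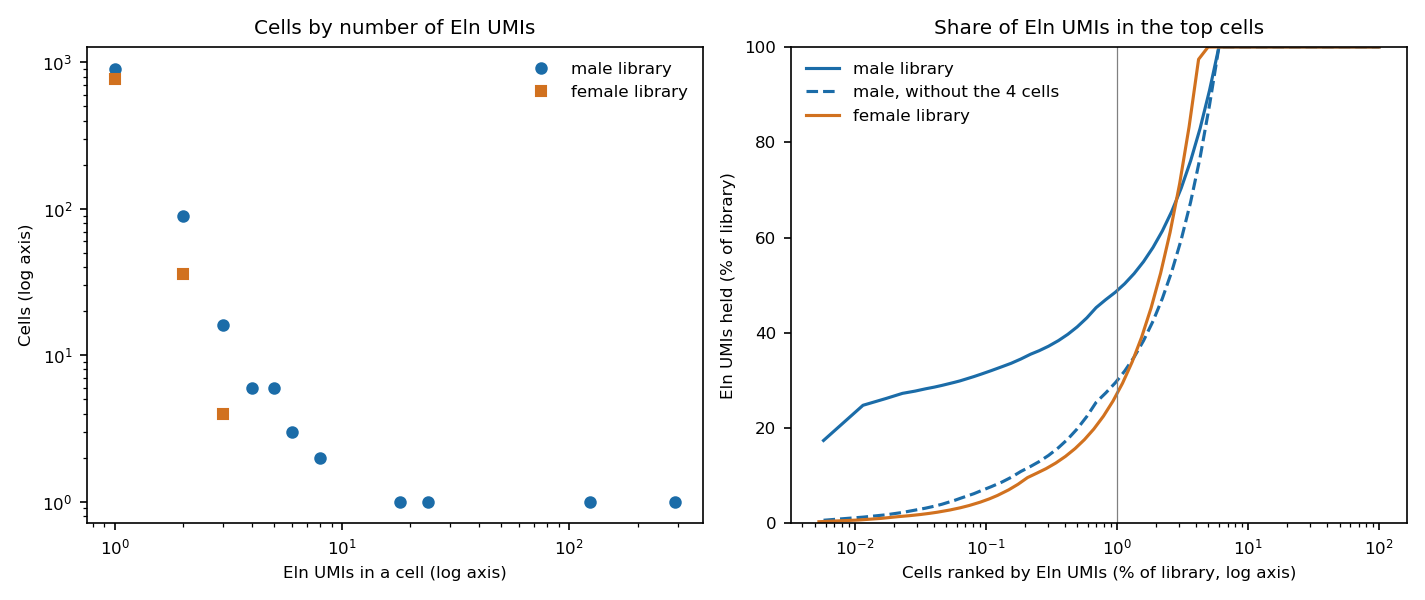
Left, number of cells by their number of Eln UMIs (both axes log) in the male library (blue circles) and the female library (orange squares); right, share of a library's Eln UMIs held by its top cells, ranked by Eln count (log axis), with the male library also drawn without its 4 highest cells. At 1% of cells the male curve is at 48.8%, the male curve without the 4 cells at 29.9% and the female curve at 27.2%.

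Detection in mesenchyme-like cells differed widely among the members, from 0.356% (male) and 0.284% (female) of thinned cells for Mfap5 to 55.1% and 53.7% for Mfap2. With each cell thinned to 2000 UMIs, an Eln UMI was found in 1.91% of male and 1.38% of female mesenchyme-like cells (5.64% and 4.44% with all UMIs, at medians of 5070 and 5168.5 UMIs). In erythroid-like cells the thinned Eln share was 0 of 148 in the male library, which allows up to 2.46%, and 0.382% in the female library (medians of 7866.5 and 8800 UMIs). Mfap2 was found in 25.0% and 29.8% of thinned erythroid-like cells. Free RNA was read from barcodes with at most 100 UMIs. Eln was at 15.7 CPM there in the male library (39 UMIs), above the mesenchyme-like level of 10.3 CPM. In the female library it was at 8.33 CPM, against 7.16 CPM in mesenchyme-like cells, and from 20 UMIs no order of these was read. Eln in erythroid-like cells was at 2.36 and 2.86 CPM, with intervals of 0.487 to 6.90 and 1.15 to 5.89 CPM that lie below the mesenchyme-like levels of the same library.

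The mesenchyme-like cells were divided into 8 domains, each called by the genes that marked its clusters. Each domain was compared with all other mesenchyme of the same library. The domains also differed in their shares of cells with high S-phase or G2/M scores, as given with the score classes below. The part of this in the domain levels was not tested. Of the 10 genes, 3 were past 2-fold in the same direction in both libraries in any domain, where 18.8% of all genes were. These were 3 of 80 pairs of gene and domain, all lower. At a coarser clustering (resolution 0.5) the number of pairs was 0, and at a minimum of 5000 UMIs it was 1. At a mitochondrial limit of 5% it was 13, most of them of Eln or Mfap5. In no domain was a member past 2-fold higher, where the share of all genes was 1.26% (Foxd1, Sall3 and Lbx2), 1.41% (Msx1 and Msx2), 3.55% (Dlx2 and Runx1), 3.06% (Sim1, Tbx15 and Agtr2), 1.18% (Ogn, Foxf1 and Npnt), 2.37% (Scx and Sox9), 2.88% (Aldh1a2 and Tcf21) and 0.172% (Rprm, Pcdh10 and Spock3). The number past 2-fold lower was also 0 in the Foxd1, Sall3 and Lbx2 domain (2.49% of all genes), the Msx1 and Msx2 domain (4.46%), the Sim1, Tbx15 and Agtr2 domain (3.85%), the Scx and Sox9 domain (5.36%) and the Rprm, Pcdh10 and Spock3 domain (2.49%). The order of the domains by level was nearly the same in both libraries for Fbn2, Fbln1, Fbln5, Mfap2 and Mfap4 (Spearman rho 0.95 to 1.00 over 8 domains, as a description of libraries that share clusters).

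Both fibrillins were low in the Dlx2 and Runx1 domain and in the Msx1 and Msx2 domain. Fbn1 was at 22.9 CPM (male) and 21.8 CPM (female) in the Dlx2 and Runx1 domain, past 2-fold lower than in other mesenchyme (log2 ratios -1.14 and -1.25; 5.43% of genes were that much lower). It was highest in the Aldh1a2 and Tcf21 domain, at 78.9 and 72.0 CPM. Fbn2 was at 127 and 111 CPM in the Dlx2 and Runx1 domain, and highest in the Scx and Sox9 domain, at 235 and 222 CPM. In the Msx1 and Msx2 domain Fbn1 was at 31.2 and 35.4 CPM and Fbn2 at 122 and 128 CPM. Over the 19 mesenchyme-like clusters the fibrillins followed each other (Pearson r 0.87 of log2 CPM, with each cluster at the mean of both libraries).

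Mfap2 and Mfap4 were highest in the domain marked by Scx and Sox9, transcription factors of tendon and cartilage precursors. Mfap2 was at 568 and 508 CPM there in the male and female libraries, and lowest in the Msx1 and Msx2 domain at 321 and 306 CPM. Mfap4 was at 409 and 359 CPM in the Scx and Sox9 domain, against 189 and 194 CPM in the Msx1 and Msx2 domain. For both genes the highest domain lay above every other domain in both libraries. Mfap5 was rare throughout. It had 26 and 23 UMIs in the Scx and Sox9 domain (2.71 and 2.64 CPM) and 2 UMIs in each library in the Ogn, Foxf1 and Npnt domain. There it was past 2-fold lower (4.55% of genes were) with intervals of the ratio that span 0. The log2 ratios of this call, -1.08 and -1.21, were taken with the 2 UMIs set to 3.

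The fibulins had distinct domain patterns. Fbln5 was at 30.8 CPM (male) and 34.7 CPM (female) in the Aldh1a2 and Tcf21 domain, past 2-fold lower than in other mesenchyme (log2 ratios -1.63 and -1.24; 4.56% of genes were), and at 154 and 127 CPM in the Scx and Sox9 domain. Fbln2 was likewise lowest in the Aldh1a2 and Tcf21 domain, at 66.4 and 74.4 CPM, with log2 ratios of -1.13 and -0.83 just either side of the 2-fold limit. It was highest in the Scx and Sox9 domain at 253 and 225 CPM (log2 ratios 0.99 and 0.89). These fibulins followed each other over the 19 clusters (r 0.79).

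Fbln1 had another order. It was highest in the Sim1, Tbx15 and Agtr2 domain, at 204 CPM (male) and 179.6 CPM (female), and lowest in the Ogn, Foxf1 and Npnt domain, at 73.5 and 74.0 CPM. In the Scx and Sox9 domain, where Fbln2 and Fbln5 peaked, Fbln1 was at 77.2 and 81.2 CPM. All 7 neighbouring pairs in its order of 8 domains were separated, in that the lower library of the upper domain lay above the higher library of the next. Efemp2 was nearly even, at 61.4 to 74.8 CPM over the male domains and 59.0 to 78.3 CPM over the female ones, and 1 of its 7 neighbouring pairs was separated.

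For the 3 fibulins that show these contrasting patterns (Fbln5 high and Fbln1 low in the Scx and Sox9 domain, Efemp2 nearly even), the 250 bases before a RefSeq start site are shown, from the table for GRCm38.p6, the assembly of mm10. Each window holds no annotated gene, and capitals mark GGGCGG, the core of the GC box bound by Sp1, on either strand (CCGCCC on the strand shown).
Fbln5 (chr12:101819120-101819369, minus strand): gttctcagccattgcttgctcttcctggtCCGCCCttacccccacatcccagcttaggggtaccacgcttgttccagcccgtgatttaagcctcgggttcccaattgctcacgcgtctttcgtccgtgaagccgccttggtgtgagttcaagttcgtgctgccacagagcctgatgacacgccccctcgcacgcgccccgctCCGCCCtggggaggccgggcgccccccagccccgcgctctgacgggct
Fbln1 (chr15:85205699-85205948, plus strand): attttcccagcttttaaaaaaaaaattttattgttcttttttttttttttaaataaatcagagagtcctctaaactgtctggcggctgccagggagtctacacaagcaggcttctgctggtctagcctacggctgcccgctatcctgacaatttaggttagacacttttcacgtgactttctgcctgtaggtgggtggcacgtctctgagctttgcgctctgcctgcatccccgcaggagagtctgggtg
Efemp2 (chr19:5473696-5473945, plus strand): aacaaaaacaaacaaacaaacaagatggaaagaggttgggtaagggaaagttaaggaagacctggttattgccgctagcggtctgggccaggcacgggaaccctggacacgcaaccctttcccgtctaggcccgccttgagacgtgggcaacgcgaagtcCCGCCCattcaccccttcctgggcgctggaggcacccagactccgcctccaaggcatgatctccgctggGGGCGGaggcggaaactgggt
These are 1 of 2 windows of the table for Fbln5, 1 of 2 for Fbln1 and 1 of 3 for Efemp2, shown because the others overlap the gene itself. GGGCGG occurred 2 times in the Fbln5 window, 0 times in the Fbln1 window and 2 times in the Efemp2 window, and 32.7% of 32851 promoter windows of the same length held it. In the windows not shown it occurred 0 times for Fbln5, 1 time for Fbln1 and 5 times in each of 2 for Efemp2, so the counts hold only for the windows shown. TATAAA, searched on both strands, was at 0 in all 3 windows and in 12.4% of all windows. The CArG box, the site of serum response factor in smooth muscle genes, was at 0 in all 3 and in 1.47% of all. The GC content was 65.2% for Fbln5, 46.4% for Fbln1 and 59.2% for Efemp2, against a median of 52.4%, and 49.6% for Fbln5 and 62.4% for Fbln1 in the windows not shown. Of the 10 genes 6 were matched in the table, and Eln, Fbn2, Mfap4 and Mfap5 were not.

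Elastin varied less surely over the domains. Eln was highest in the Scx and Sox9 domain, at 16.6 CPM in the male (interval 14.2 to 19.4) and 10.45 CPM in the female library (8.41 to 12.8), with log2 ratios of 0.79 and 0.60 to other mesenchyme. It was lowest in the Foxd1, Sall3 and Lbx2 domain at 7.48 and 6.54 CPM. None of the 7 neighbouring pairs in its order was separated, and its order agreed less between the libraries (rho 0.60) than for most members. Eln, Fbn2, Fbln2, Fbln5, Mfap2, Mfap4 and Mfap5 had their highest mean level in the Scx and Sox9 domain, while Fbn1, Fbln1 and Efemp2 did not.

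**Figure D4:**
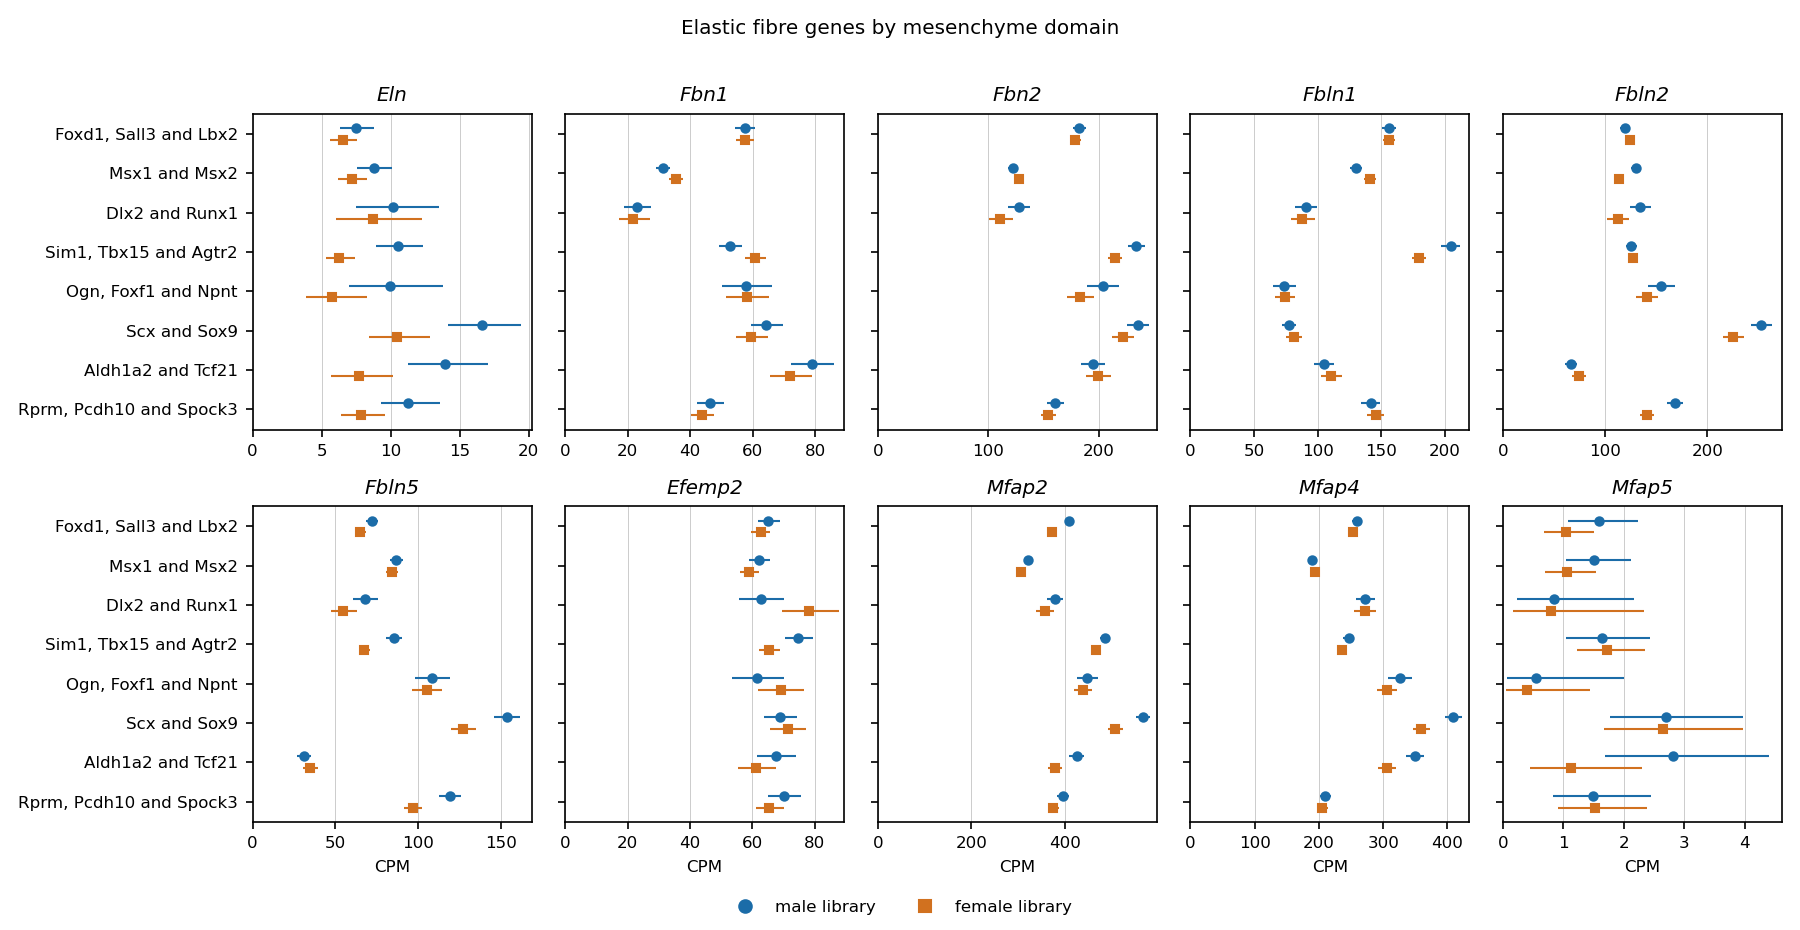
Level of each of the 10 genes by mesenchyme domain (CPM, linear axis from 0) in the male library (blue circles) and the female library (orange squares), with 95% counting intervals. Fbln2 and Fbln5 peak in the Scx and Sox9 domain (253 and 154 CPM in the male library) and Fbln1 in the Sim1, Tbx15 and Agtr2 domain (204 CPM in the male library), and Efemp2 is nearly level.

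Of the 44 other pathway genes, 37 were measured in mesenchyme and 15 were past 2-fold in both libraries in at least 1 domain, where 18.8% of all genes were. In the Scx and Sox9 domain 5 were higher (2.37% of all genes) and 1, Fbln7, was lower (5.36%), with 6 and 3 UMIs. Among them were Adamtsl2, which binds fibrillin microfibrils, at 10.5 and 7.92 CPM in the male and female libraries (log2 ratios 2.80 and 2.51), and Efemp1, which encodes fibulin-3, at 21.3 and 19.3 CPM (1.35 and 1.44). The protease gene Adamts17 was at 21.2 and 26.1 CPM there (1.57 and 1.84), and Ltbp4, which helps Fbln5 deposit elastin, at 20.1 and 15.6 CPM (1.16 and 1.12). The Sim1, Tbx15 and Agtr2 domain, where Fbln1 peaked, had 4 higher genes (3.06% of all genes) and 1 lower (3.85%), Tgfb1 at 2.86 and 1.85 CPM (-1.72 and -2.02). There Dcn, a collagen-binding proteoglycan, was at 337 and 298 CPM (1.82 and 1.93), Lox at 114 and 101 CPM (1.10 and 1.08), Loxl1 at 4.69 and 4.53 CPM (1.35 and 1.27), and Itgb3 was higher at 1.09 and 1.67 CPM (16 and 38 UMIs). Lox and Loxl1 were thus highest in another domain than Eln. In the Dlx2 and Runx1 domain, where Fbn1 was lowest, Tgfb1 was at 49.3 and 45.1 CPM (2.95 and 3.14) and Tgfb2 at 274 and 309 CPM (1.25 and 1.35), while Tgfb3 was lower at 5.93 and 3.71 CPM (-1.34 and -1.98). In all 5 pathway genes were higher there (3.55% of all genes; Adamts17, Bgn and Itgav were the others) and 3 lower (5.43%; Efemp1 and Adamtsl2 were the others). In the Msx1 and Msx2 domain 7 were lower (4.46%; Loxl1, Ltbp4, Efemp1, Adamtsl2, Dcn, Itgb3 and Tgfb3) and Tgfb1 was higher (1.41%). In the other 4 domains 0 were higher, and 1 or 2 were lower, each of them Dcn or Tgfb1.

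For each member the 3 genes with the most similar profile over the 19 clusters were named by Pearson's r, as a description. The closest were Nfib for Fbn1 (0.96), Mmp11 for Mfap2 (0.95) and Prrx1 for Fbln5 (0.92). Ttyh3 and Ebf3 (0.92 and 0.91) came next for Fbn1, Ubxn4 and Ralgds (0.93 and 0.92) for Mfap2, and Gm26523 and Fhod3 (0.90 and 0.83) for Fbln5. Fbn2 was closest to Mia3, Olfml3 and S1pr2 (0.91, 0.90 and 0.90), Mfap4 to Bphl, Wdfy1 and Ext2 (all 0.91), and Fbln1 to Haus7, Psmd13 and Nup93 (0.91, 0.90 and 0.90). Fbln2 was closest to Cdh2, Cacna1g and Aff2 (0.82, 0.81 and 0.81), Efemp2 to Zfp334, Anxa5 and Txndc15 (0.82, 0.81 and 0.76), and Eln to AC149090.1, Heph and Colgalt1 (0.83, 0.81 and 0.80). Mfap5, with few UMIs, was closest to Echdc2, Mut and Fkbp9 (0.73, 0.72 and 0.71). Clusters share libraries and differ in depth, so no p is given.

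Between the sexes, the mesenchyme-like cells were compared without 1 cluster of the Foxd1, Sall3 and Lbx2 domain. That cluster had a smooth muscle marker, Myh11, and no mesenchyme marker, among its leading genes against the cells of all other classes. A cluster of the Aldh1a2 and Tcf21 domain was kept, though it had the smooth muscle marker Myocd among its leading genes against all other cells. This left 15494 male and 17277 female cells. Eln was at 10.6 CPM in the male library (997 UMIs) and 7.28 CPM in the female library (826 UMIs), a log2 ratio of 0.54 (interval 0.41 to 0.68). Mfap5 was at 1.72 CPM in the male library (162 UMIs) and 1.36 CPM in the female library (154 UMIs), with a ratio of 0.35 (0.02 to 0.67). These were the 2 of 10 genes past 1.2-fold higher in the male library, where 7.7% of 13346 genes were. The number past 1.2-fold lower was 0, where 4.89% of genes were.

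The other 8 members differed by less than 1.2-fold. Fbln5 was nearest the limit, at 92.6 CPM (male) and 80.2 CPM (female), with a log2 ratio of 0.21 and an interval of 0.16 to 0.25. Fbln2 (0.11), Mfap4 (0.10), Mfap2 (0.09) and Efemp2 (0.08) lay slightly above 0, and Fbn2 (0.03), Fbln1 (-0.04) and Fbn1 (-0.05) close to it. The median over the 10 genes was 0.09, against -0.02 over all genes, whose central 90% lay between -0.26 and 0.34. Eln thus lay above the central range of all genes, and the fibrillins in its middle.

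The Eln difference was seen in most of the mesenchyme. Eln was higher in the male library in 8 of 8 domains, with log2 ratios of 0.19 to 0.86, and the interval lay above 0 in 5 of them. The cluster left out of the pooled comparison (17 male and 15 female Eln UMIs) was counted in for these domains and for the 19 clusters below. The highest ratio was in the Aldh1a2 and Tcf21 domain, at 13.9 CPM (male) and 7.68 CPM (female). Over the 19 clusters it was higher in the male library in 17. The lowest ratio was -0.53 (29 male and 36 female UMIs) and the highest 3.67 (10 male UMIs and 1 female UMI). Eln in barcodes with at most 100 UMIs was also higher in the male library, at 15.7 and 8.33 CPM, and the part of free RNA in the difference was not tested. Of the 36 other pathway genes measured in this comparison, 6 were past 1.2-fold higher and 1 lower, with a median log2 ratio of 0.02. Those higher were Tgfb1 (0.41), Adamtsl2 (0.35), Emilin3 (0.34), Ltbp4 (0.34), Ltbp3 (0.31) and Efemp1 (0.27), and Itgb3 was lower (-0.41, 43 male and 69 female UMIs). These 7 became 3 at a minimum of 5000 UMIs per cell and 3 with clusters weighted alike in both libraries. Loxl4, Ltbp2, Adamtsl4, Adamtsl5, Itgb6, Mmp9, Mmp12 and Ctss had under 100 UMIs.

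**Figure D5:**
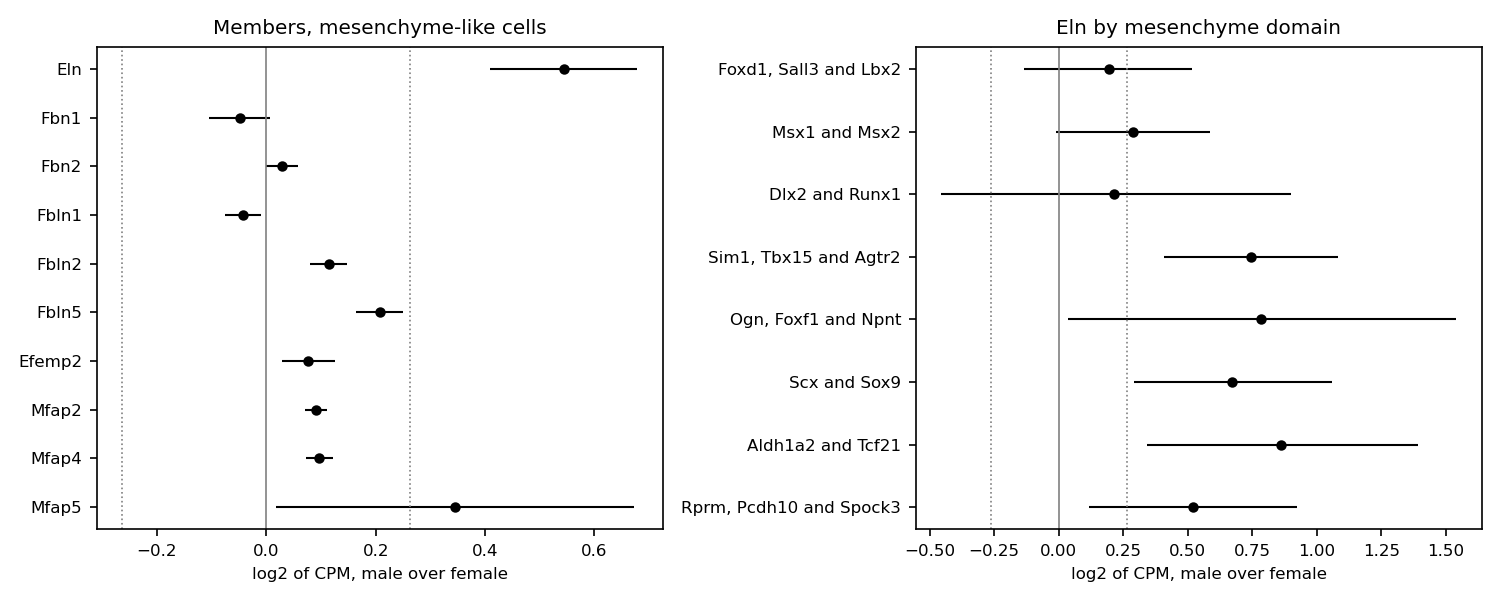
Left, log2 ratio of CPM, male over female, for the 10 genes in mesenchyme-like cells; right, the same for Eln by mesenchyme domain, with exact 95% counting intervals and dotted lines at 1.2-fold. Eln is at 0.54 and lies right of 0 in all 8 domains, and Fbn1, Fbn2 and Fbln1 lie within 0.05 of 0. The left panel leaves out 1 cluster of the Foxd1, Sall3 and Lbx2 domain, and the right panel counts it in.

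Mesenchyme-like cells were also divided by scores over 42 S-phase and 52 G2/M genes, into cells with a high S score, a high G2/M score or neither; such classes are ranges of a score and not cell types. The higher score lay within 0.05 of the limit in 1963 of 16306 male and 2325 of 17986 female cells. Of the 10 genes, 0 were past 2-fold in either class against cells with neither score, where 3.05% of genes were higher and 0.329% lower in the S class and 3.4% higher and 1.28% lower in the G2/M class. Fbln1 and Mfap4 differed in opposite directions, both by less than 2-fold. Fbln1 was at 144 and 146 CPM in S-score cells of the male and female libraries and at 161 and 159.6 CPM in G2/M-score cells, against 103 and 104 CPM in cells with neither score. Its log2 ratios were 0.49 and 0.48 for S and 0.65 and 0.61 for G2/M, and Fbln1 was higher in 8 of 8 domains in both libraries and both classes. Mfap4 was at 233 and 221 CPM in S-score cells and 221 and 224 CPM in G2/M-score cells, against 333 and 308 CPM, with log2 ratios between -0.59 and -0.46. The domains differed in their make-up by score class. Cells with neither score were 1589 of 1939 male and 1244 of 1674 female cells in the Scx and Sox9 domain. They were 399 of 2578 male and 255 of 2955 female cells in the Foxd1, Sall3 and Lbx2 domain. The part of this in the domain levels of Fbln1, Mfap4 and the other members was not tested.

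Eln was at 12.2 CPM in male and 9.12 CPM in female S-score cells and at 8.06 and 5.84 CPM in G2/M-score cells, against 11.3 and 7.24 CPM in cells with neither score. G2/M-score cells were deeper, with medians of 6910.5 and 7108 UMIs, against 4224.5 and 4092 UMIs in cells with neither score. Within domains Eln was higher in S-score cells than in cells with neither score in 5 of 8 male and 6 of 8 female domains, so its direction was not uniform as that of Fbln1 was. With domains weighted alike, a setting chosen after seeing the data, the log2 ratio of Eln to cells with neither score was 0.66 (male) and 0.80 (female) in S-score cells, against 0.11 and 0.33 pooled. In G2/M-score cells it was 0.14 and 0.21, against -0.49 and -0.31 pooled, so its direction there turned with the weighting. The weighted ratios have no interval and rest in part on very few Eln UMIs. Male G2/M-score cells had 1 in the Dlx2 and Runx1 domain and 1 in the Aldh1a2 and Tcf21 domain. Cells with neither score had 5 (male) and 3 (female) in the Rprm, Pcdh10 and Spock3 domain. No direction was read from the weighted ratios.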

How the data were processed

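The deposited files hold raw UMI counts of each gene in each barcode, not normalized, over all barcodes of 1 male and 1 female library. Per the submitters' processing notes they were made with Cell Ranger 3.1 on mm10. Of 31053 gene IDs, 31011 (99.9%) matched GENCODE M21 of that build, which gave positions.

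The members, pathway lists and markers were chosen with earlier results of these data known. Cells were clustered with scanpy 1.11.5 and leidenalg 0.10.2 (2000 variable genes, of which 1977 were used, 30 principal components, 15 neighbours, resolution 1), which gave 26 clusters. A class other than mesenchyme was named where its markers were up by a mean log2 fold of 2 or more. All remaining clusters were called mesenchyme-like, with no limit on mesenchyme markers. The limit for a domain, 0.75, was set after the clusters were seen, and clusters in which over 50% of cells had high doublet scores got none. Scrublet in scanpy called 0% of cells in either library, and so failed; doublets were kept, and removal of the 13.8% of male and 15.0% of female cells with the highest scores was an alternative.

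Levels are summed counts per 1000000, with exact Poisson, conditional or Clopper-Pearson 95% intervals. Limits were 1.2-fold between sexes and 2-fold between classes or domains, over genes with at least 100 UMIs. For calls past 2-fold, counts under 3 UMIs were set to 3 in domain and score-class ratios. In class ratios this was done for the lower side of the comparison. Named besides the 10 genes were up to 3 genes per pathway list past these limits, those with under 100 UMIs, the 3 genes most like each member over clusters and the 10 genes furthest above in high-Eln cells; genes of counts of 5 or fewer, other pathway genes past 2-fold in a domain, pathway values in smooth muscle-like cells and arterial markers were named after their values were seen. The male over female ratio and its interval were tested on simulated counts with known folds and counting error only. The other steps were not tested on simulated data.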

Additional observations from a re-analysis of the deposited data

Results flagged for a closer look

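Elastin UMIs were also found in barcodes that were not counted as cells, outside the cell classes and domains compared above, at levels above what 3 UMIs would give. Those with at most 100 UMIs are the free RNA that was set beside the mesenchyme-like levels. In barcodes with at most 100 UMIs Eln was at 15.7 CPM (male library, 39 UMIs) and 8.33 CPM (female library, 20 UMIs). In barcodes above 100 and under 2000 UMIs it was at 12.7 CPM (male library, 142 UMIs) and 5.51 CPM (female library, 53 UMIs). No such barcode held more than 3 Eln UMIs in the male library or more than 1 in the female library, so none was near the counts of the high-Eln cells.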

How the results depend on the processing

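No paired analysis was possible because each sex had 1 library and no fit was made. Over 10 alternatives the male over female log2 ratio of Eln was 0.50 to 0.60 and that of Mfap5 0.27 to 0.40, both past 1.2-fold in all 10. Fbln5 was past it in 1, and Fbn1 ranged from -0.32 to 0.06. Of the 10, leaving out the high-Eln cells could change no ratio, since 0 of those cells were mesenchyme-like. Scaling by the median of ratios or by TMM factors shifted every ratio by only 0.00094 and 0.0033. The number of members past 1.2-fold, 2, became 1 with at least 500 UMIs per gene, since Mfap5 has fewer. The number of other pathway genes past it, 7, became 3 with at least 5000 UMIs per cell and 3 with clusters weighted alike. The 3 pairs of member and domain became 1 (Mfap5 in the Scx and Sox9 domain) at 5000 UMIs. They became 13 at a mitochondrial limit of 5% and 0 at a coarser clustering (resolution 0.5), so the domain calls depend on these settings. Most of the 13 were of Eln or Mfap5, in 937 male and 791 female mesenchyme-like cells. Counts under 3 UMIs were set to 3 in these alternatives, also where both sides of a ratio were that low. A small domain could pass 2-fold by this floor alone, and the cause was not tested. The 43 pairs of member and class became 15 at the 5% limit, which left 1225 male and 1111 female cells, with 104 and 34 Eln UMIs. The male share of Eln UMIs in the top 1% of cells, 48.8%, became 52.3% at 5000 UMIs, 45.2% at the 5% limit, 40.9% without high doublet scores, 54.8% on thinned counts and 29.9% without the high-Eln cells (the last chosen after seeing the data). The female share, 27.2%, became 22.5% at 5000 UMIs, 44.1% at the 5% limit and 75.8% on thinned counts. The 4 male cells with at least 10 Eln UMIs became 0 at the 5% limit and 15 at a limit of 5 Eln UMIs. With all UMIs in place of thinned ones, the shares of mesenchyme-like cells with a UMI became 5.64% (male) and 4.44% (female) for Eln, 0.994% and 0.867% for Mfap5, and 35.9% and 34.3% for Fbln5. Of 177 values under alternatives 129 kept within their limits and 48 moved. A change of sign was counted only for ratios past their fold limit. These were the male over female ratios of Eln and Mfap5, and 0 of their values changed sign. Ratios within the limit did change sign: Fbn1, male over female, -0.05, became 0.06 on thinned counts, Fbln1, -0.04, became 0.06 at the 5% limit and 0.02 with clusters weighted alike, Fbn2, 0.03, became -0.0028 at 5000 UMIs, and Eln in male S-score cells, 0.11, became -0.34 at the 5% limit. Depth limits the domain values of Eln and Mfap5, of which few UMIs were sequenced per domain.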
